A study of Mus musculus with 79 samples.

Results

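The 26 genes described here encode the machinery of inhibition by gamma-aminobutyric acid (GABA) in the mouse visual cortex. They were chosen by name from 55335 genes in a table of read counts and read in all 79 libraries. The rule itself uses no measured values, but the genes were chosen with earlier results of these data known. They fall into 5 roles: 5 genes of GABA synthesis, vesicle loading, uptake and breakdown, 9 subunits of the GABA-A receptor, 5 genes of the GABA-B receptor and its KCTD auxiliary subunits, 5 genes of the postsynaptic scaffold and its adhesion proteins, and 2 chloride transporters. All 26 passed the filter on low counts in every comparison.

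GABA is made from glutamate by glutamate decarboxylase, loaded into vesicles, released by interneurons, and taken up and broken down by neurons and astrocytes. It opens GABA-A receptors, chloride channels built of 5 subunits that cluster at inhibitory synapses on a scaffold of gephyrin. It also acts on GABA-B receptors, which signal through G proteins and whose response is shaped by KCTD proteins. The chloride gradient that the GABA-A receptor draws on is set by cation-chloride cotransporters. Interneurons that express vasoactive intestinal peptide (VIP) release GABA mainly onto other interneurons, and like all cortical neurons they receive GABA through receptors of their own.

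Every mouse in the study carried the INTACT wt/ki allele, which tags nuclei of Cre-expressing cells, and VIP Cre wt/ki, and every library label gave 10 days of dark housing. The protocol gives dark housing that began 3 days after injection and lasted 10 to 12 days, with harvest in the dark or after renewed light. An adeno-associated virus (AAV) with the neuronal Syn1 promoter, injected into the visual cortex at postnatal day 55 to 60, carried either Kir2.1 or a mutant form, Kir2.1(Mutant). Kir2.1 is a potassium channel that holds neurons near their resting potential, and each vector also carried mScarlet-KASH, a red protein anchored in the nuclear envelope. Sorted nuclei, 50 to 100 per library, came from transduced VIP neurons (10 libraries with Kir2.1, 9 with the mutant), non-transduced VIP neurons (10 and 9), transduced neurons of any kind (8 and 8) and all non-transduced nuclei (10 and 9). Mice without injection contributed 3 VIP libraries and 3 from all nuclei. No label says which libraries came from 1 animal, and the p-values below therefore rest on library-to-library spread, which may be technical in part.

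Libraries held 3219899 to 9267246 counts. Kcnj2, the gene for Kir2.1, was at 270 to 896 CPM (counts scaled by library size) in transduced VIP nuclei with Kir2.1 and at 288 to 1191 CPM with the mutant, against 1.57 to 28.1 and 12.1 to 34.98 CPM in the non-transduced ones. Transduced neurons had 142 to 1119 CPM with Kir2.1 and 170.3 to 565 CPM with the mutant, against 7.61 to 152 and 2.64 to 22.3 CPM in all non-transduced nuclei, so that the highest non-transduced library reached into the transduced range. Gene counts do not tell the channel, the mutant and the mouse gene apart, so they check transduction but not which vector a library carried. Xist and Y-linked genes went against the sex label in 32 of 79 libraries. Libraries of 1 vector with the same number were mixed in expressed sex for 0 of 22 numbers and in labelled sex for 3. Sex was tested as a covariate both as labelled and as expressed, and whether library labels were exchanged was not tested. Of the libraries, 3 stood apart from their groups: transduced VIP library 1, non-transduced VIP library 9 and transduced neuron library 10, all with Kir2.1. The sorts carried their markers. Summed over 12 VIP neuron markers, transduced VIP libraries had 7635 to 20756 CPM and transduced neurons 69.4 to 714 CPM. Slc17a7, the vesicular glutamate transporter of cortical excitatory neurons, was at 26.7 to 107 CPM in transduced neurons and at 0.306 to 17.9 CPM in transduced VIP nuclei.

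VIP nuclei and mixed cortical nuclei differed in all 5 genes of synthesis, vesicles, uptake and breakdown and in part of every other role. The 44 non-transduced libraries, 22 of each kind, were compared first, since they show which of the genes these neurons use. In VIP nuclei 9 of the 26 genes were higher and 8 lower than in all nuclei (edgeR quasi-likelihood test, adjusted p under 0.05 over all 22855 genes tested), where 10.7% of all genes tested were higher, 16.7% lower and 27.4% either. Their median log2 fold change was 0.18, against -0.05 over all genes. All nuclei hold excitatory neurons and glia besides interneurons: 12 of 12 excitatory, 10 of 10 oligodendrocyte and 9 of 10 microglia markers were lower in VIP nuclei, and 11 of 12 VIP neuron markers were higher.

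All 5 genes of synthesis, vesicles, uptake and breakdown were higher in VIP nuclei. Gad1, which encodes the decarboxylase GAD67 that makes most cortical GABA, lies on mm10 chromosome 2 (70553072 to 70602014, plus strand). Its lowest, median and highest values were 269, 485 and 608.5 CPM in non-transduced VIP nuclei with Kir2.1 and 213, 465 and 547 CPM with the mutant. The corresponding values in all nuclei were 27.8, 52.1 and 107 CPM with Kir2.1 and 31.9, 63.8 and 155 CPM with the mutant. Uninjected mice had 496, 513 and 590 CPM in VIP nuclei and 64.1, 89.4 and 90.9 CPM in all nuclei. No library of all nuclei reached the lowest VIP library, and Gad1 was 7.04-fold higher in VIP nuclei (log2 fold change 2.81 ± 0.19 SE, adjusted p = 2.85e-17). Gad2, the gene for GAD65, the form of the enzyme tied to vesicles, had 169.7 to 318 CPM in VIP nuclei and 11.1 to 103 CPM in all nuclei of injected mice, and was 5.84-fold higher (2.55 ± 0.22, adjusted p = 6.11e-14).

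Slc32a1, the vesicular GABA transporter that fills synaptic vesicles, had the largest difference of the genes that were higher in VIP nuclei (8.43-fold, log2 fold change 3.08 ± 0.41, adjusted p = 2.62e-08). It was a low gene in the nuclei, at 9.24 to 41.6 CPM in VIP libraries of injected mice and at 0 to 9.08 CPM in all nuclei. Abat, the transaminase that breaks GABA down, had a log2 fold change of 1.65 ± 0.20. Slc6a11, a GABA transporter known mainly from astrocytes, was also higher (1.06 ± 0.26, adjusted p = 0.00163), although the astrocyte list did not move as one, with 1 of its 12 markers higher and 2 lower. The count over the Slc32a1 gene includes reads that could belong to a gene on the opposite strand, whose counts came to 12.1% of those of Slc32a1.

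On the receptor side most differences ran the other way. Of 9 GABA-A subunit genes 5 were lower in VIP nuclei and 2 higher. Gabrd, the delta subunit of extrasynaptic receptors, was at 4.12 to 23.8 CPM in VIP nuclei with Kir2.1 and at 0 to 17.5 CPM with the mutant, against 23.7 to 171 and 22.7 to 162 CPM in all nuclei. The ranges overlapped only at their edges, and the log2 fold change was -2.98 ± 0.34 (adjusted p = 6.64e-10). Gabrg1, a gamma subunit, was close to absent from VIP nuclei: its highest value was 0.866 CPM with Kir2.1 and 2.19 CPM with the mutant, and all 3 uninjected libraries had 0 counts. All nuclei had up to 18.4 and 15.9 CPM (adjusted p = 4.94e-06; with most VIP libraries at 0, the size of the fold was not read). Gabra5, whose receptors carry tonic inhibition in the hippocampus, was lower in VIP nuclei (-1.57 ± 0.24), as were Gabra4 (-0.83 ± 0.14) and Gabra2 (-0.61 ± 0.13). Gabrg3 (0.99 ± 0.12) and Gabrb2 (0.36 ± 0.11) were higher. Gabra3 and Gabrb1 did not pass the test.

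The GABA-B genes gave 2 lower and none higher. Kctd8, one of the KCTD proteins that bind the GABA-B2 subunit, was at 2.16 to 37.4 CPM in VIP nuclei with Kir2.1 and 6.37 to 31.4 CPM with the mutant, against 45.6 to 106 and 36.6 to 130 CPM in all nuclei, again with ranges that overlapped at their edges. The log2 fold change of Kctd8 was -2.16 ± 0.26 (adjusted p = 1.73e-09), and that of Gabbr2, which encodes GABA-B2, was -0.55 ± 0.11. Gabbr1, the subunit that binds GABA, did not pass (0.14 ± 0.11, adjusted p = 0.434), nor did Kctd16 (-0.01 ± 0.11). Gphn, which encodes gephyrin, was higher in VIP nuclei (0.61 ± 0.12, adjusted p = 3.62e-05), and so was Slitrk3, a postsynaptic adhesion protein of inhibitory synapses (1.23 ± 0.20). Slc12a2, the importer NKCC1, was lower (-1.21 ± 0.21), whereas Slc12a5, the neuronal exporter KCC2, did not pass (0.17 ± 0.13, adjusted p = 0.386). Among 46 further genes of GABA metabolism, receptors and inhibitory synapses that could be tested, 12 were higher and 16 lower.

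Transduced VIP nuclei were also set against transduced neurons, both with the mutant vector, which compares 2 neuronal sorts. Here 8 of the 26 genes were higher in VIP nuclei and 9 lower, where 7% of all 18359 genes tested were higher and 10.9% lower. Slc32a1, at 10.6 to 33.0 CPM in VIP nuclei and 0 to 5.67 CPM in neurons, again stood at the top (log2 fold change 3.16 ± 0.54, adjusted p = 1.31e-05). Gad1, at 337 to 741 CPM in VIP nuclei and 46.7 to 105 CPM in neurons, had 2.91 ± 0.20 (adjusted p = 2.69e-15). At the bottom were Gabrd, at 1.51 to 29.7 CPM against 101.1 to 239.8 CPM (-3.42 ± 0.41, adjusted p = 7.81e-09), Kctd8, at 16.1 to 41.4 CPM against 46.7 to 144 CPM (-2.11 ± 0.29, adjusted p = 1.81e-07), and Gabra4, at 33.8 to 95.8 CPM against 133 to 216 CPM (-1.56 ± 0.19, adjusted p = 1.04e-08). The ranges of these 5 genes did not overlap between the sorts. They were taken from the ends of the list by fold change, and the share of all genes without overlap was not computed. Kctd12, a KCTD protein that speeds the fading of the GABA-B response, came next after these (2.85 ± 0.74, adjusted p = 0.00384). It was at 1 to 19.9 CPM in transduced VIP nuclei and at 0 to 4.26 CPM in transduced neurons. These differences are within the mutant vector and do not involve Kir2.1.

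**Figure D1:**
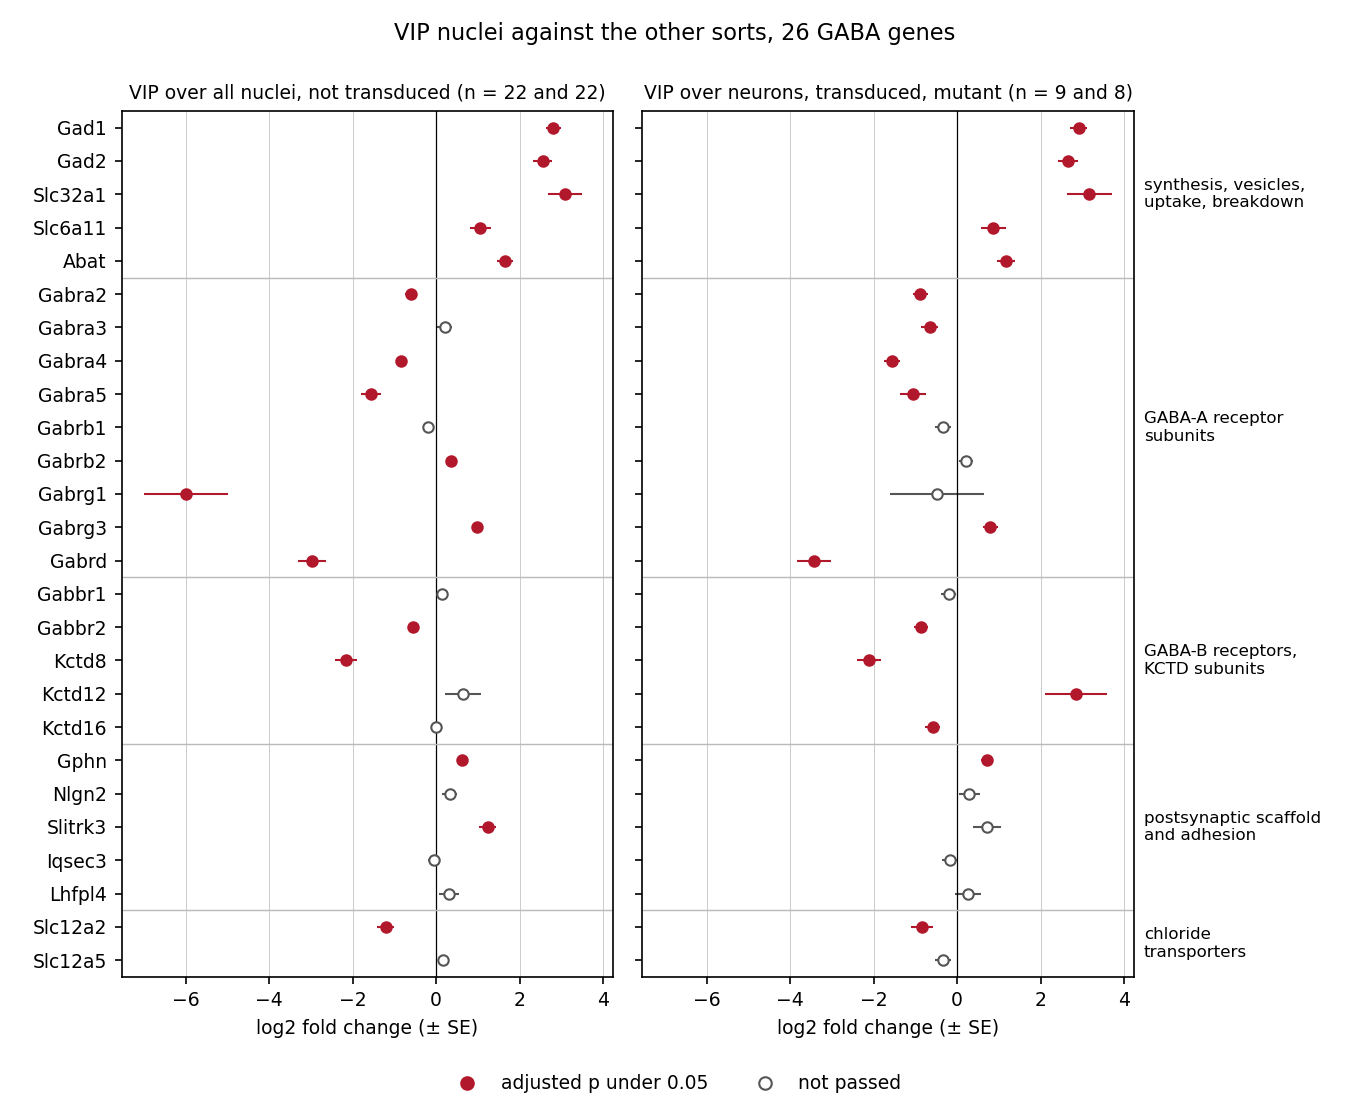
Log2 fold change (horizontal axis, ± SE) of each of the 26 genes, in rows by role. Left, VIP nuclei over all nuclei in 44 non-transduced libraries; right, VIP nuclei over neurons, transduced with the mutant vector, 9 and 8 libraries. Filled points passed the test. The 5 genes of synthesis, vesicles, uptake and breakdown lie right of 0 in both panels, and Gabrd and Kctd8 lie left of -2.

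The main comparison asked what the working channel did in the VIP neurons that carried it. Of the 26 genes, 2 fell with Kir2.1 and 0 rose (edgeR, 21207 genes tested), where 1.03% of all genes tested fell, 0.354% rose and 1.39% passed in either direction. These were Kctd16, a KCTD auxiliary subunit of the GABA-B receptor, and Gabrb2, a beta subunit of the GABA-A receptor. Another 7 of the genes had an unadjusted p under 0.05, all of them lower with Kir2.1, and missed the adjusted threshold; in all, 9 of the 26 and 2378 of the 21207 genes tested had such a p. The median log2 fold change of the 26 genes was -0.15, against 0.04 over all genes, and 19 of the 26 lay below 0. In non-transduced VIP nuclei the same comparison of vectors had a median of -0.28, with 22 of the 26 below 0. Since the 26 genes were chosen with earlier results known, the shares over all genes are given beside them as description and not as a test.

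Kctd16 lies on chromosome 18 (40256962 to 40531630, plus strand). In transduced VIP nuclei its lowest, median and highest values were 359, 472 and 747 CPM with Kir2.1 and 787, 1138 and 1625 CPM with the mutant. All 10 Kir2.1 libraries lay below all 9 mutant libraries. The level with Kir2.1 was 2.24-fold lower (log2 fold change -1.16 ± 0.16 SE, adjusted p = 3.3e-06), and the adjusted p stayed between 1.57e-06 and 1.52e-05 when any 1 of the 19 libraries was left out. Genes that overlap Kctd16, 2 of them on the opposite strand, had at most 12.7% as many counts each as Kctd16 itself, and whether the counting used strand was not given.

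Gabrb2 lies on chromosome 11 (42419757 to 42629028, plus strand). It was at 164, 233 and 449 CPM (lowest, median and highest) in transduced VIP nuclei with Kir2.1 and at 331, 467 and 570 CPM with the mutant. Of the 10 Kir2.1 libraries 9 lay below every mutant library, and the tenth, library 6, lay inside their range. Gabrb2 was 1.82-fold lower with Kir2.1 (-0.86 ± 0.15, adjusted p = 0.000303; 6.62e-06 to 0.00111 with any 1 library left out). The sequence before a start site of Gabrb2 in the RefSeq annotation of GRCm38.p6, chr11:42420190-42420439 on the plus strand, is shown because Gabrb2 was the receptor subunit that fell in both sorts of transduced nuclei. Capitals mark a GC box (GGGCGG, read here on the other strand), which 32.74% of 32851 such windows in the table hold. The windows of Gabrb2 that end at 42420773 and 42421200, before other start sites, hold none of the motifs searched and are not shown.

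Gabrb2: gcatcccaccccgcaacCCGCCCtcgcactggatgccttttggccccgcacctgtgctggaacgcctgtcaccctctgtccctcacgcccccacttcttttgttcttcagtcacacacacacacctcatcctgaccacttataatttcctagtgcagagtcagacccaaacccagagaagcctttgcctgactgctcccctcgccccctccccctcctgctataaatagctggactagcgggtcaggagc

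The 5 genes of synthesis, vesicles, uptake and breakdown did not pass the test in transduced VIP nuclei. Gad1 was at 219, 384 and 523 CPM (lowest, median and highest) with Kir2.1 and at 337, 577 and 741 CPM with the mutant. All 10 Kir2.1 libraries lay below the mutant median, and the ranges overlapped (log2 fold change -0.59 ± 0.17, adjusted p = 0.0556). Gad2 was at 129, 172 and 244 CPM with Kir2.1 and at 219, 246 and 290.5 CPM with the mutant, and 9 of the 10 Kir2.1 libraries lay below every mutant library. Its log2 fold change was -0.48 ± 0.14 (adjusted p = 0.057). Both genes passed when the libraries that stood apart were left out, with adjusted p = 0.0469 for Gad1 and 0.037 for Gad2, and with DESeq2 (0.017 and 0.0101). Gad1 also passed with the sex label as covariate (0.042). Slc32a1, at 7.49, 18.3 and 23.5 CPM with Kir2.1 and 10.6, 20.5 and 33.0 CPM with the mutant, did not pass (-0.34 ± 0.27, adjusted p = 0.761). For Slc6a11 the log2 fold change was -0.76 ± 0.29 (adjusted p = 0.212), and for Abat 0.03 ± 0.20.

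Among the other GABA-A subunits of VIP nuclei, Gabrg3 was at 667, 988 and 1918 CPM with Kir2.1 and 1178, 1294 and 2004 CPM with the mutant. Here 9 of the 10 Kir2.1 libraries lay below every mutant library, with library 6 far above them, and the log2 fold change of Gabrg3 was -0.43 ± 0.15 (adjusted p = 0.132). Gabra4 was at 53.8 to 89.4 CPM with Kir2.1 and at 33.8 to 95.8 CPM with the mutant, with no difference past the spread (0.14 ± 0.19; 95% interval -0.23 to 0.50). The other subunits, Gabra2, Gabra3, Gabra5, Gabrb1, Gabrg1 and Gabrd, had log2 fold changes from -0.55 to 0.73, none past the test.

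Of the GABA-B genes, the receptor subunits themselves were level between vectors in their means. Gabbr1 was at 65.8, 126 and 182 CPM in transduced VIP nuclei with Kir2.1 and at 69.0, 132 and 176 CPM with the mutant (log2 fold change 0.00 ± 0.18; 95% interval -0.35 to 0.36), and Gabbr2 had -0.02 ± 0.16. Kctd8 was lower in 7 of the 10 Kir2.1 libraries than in every mutant library, at 3.61, 7.94 and 23.7 CPM against 16.1, 22.1 and 41.4 CPM, but did not pass (-0.99 ± 0.38, adjusted p = 0.219). Kctd12 gave -0.14 ± 0.56.

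Gphn was at 377, 503 and 744 CPM with Kir2.1 and at 534, 646 and 1093 CPM with the mutant in transduced VIP nuclei. The ranges overlapped, with 8 of 10 Kir2.1 libraries below the mutant median, and Gphn did not pass (-0.43 ± 0.16, adjusted p = 0.181). Nlgn2, the neuroligin of inhibitory synapses, Slitrk3, Iqsec3, a gephyrin-binding exchange factor, and Lhfpl4, which links GABA-A receptors to neuroligin-2, had log2 fold changes from -0.23 to 0.07. Slc12a5, at 63.0 to 127 CPM with Kir2.1 and 54.8 to 143 CPM with the mutant, gave -0.07 ± 0.16 (adjusted p = 0.952), and Slc12a2 also -0.07 (± 0.27).

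Of 45 further GABA genes tested in this comparison, 1 fell and 0 rose. It was Kcnj3, a subunit of the GIRK potassium channels that GABA-B receptors open (log2 fold change -0.79 ± 0.18, adjusted p = 0.00862). Markers of the cells moved too. Of 12 VIP neuron markers 6 fell with Kir2.1, among them Vip (-1.57 ± 0.29) and Adarb2 (-0.97 ± 0.17), and the summed level of the list was 7635 to 13100 CPM with Kir2.1 and 18628 to 20756 CPM with the mutant. Of 10 pan-GABAergic markers outside the 26 genes 2 fell, and their sum was 2968 to 9476 CPM against 4927 to 10334 CPM. Of 12 excitatory markers Camk2a rose (0.89 ± 0.12), with the sum at 893 to 1486 CPM with Kir2.1 and 524 to 673 CPM with the mutant. Of the 12, 10 had log2 fold changes above 0 and 2 below, and 11 did not pass. Slc17a7 had a median of 5.13 CPM with Kir2.1 and 5.05 CPM with the mutant. Of 11 markers of other interneurons tested 2 fell, and the 12 listed summed to 482 to 788 CPM with Kir2.1 and 922 to 1325 CPM with the mutant. Of 12 astrocyte markers 1 fell, with sums of 218 to 416 CPM against 247 to 393 CPM. The part of these shifts in the falls of Kctd16 and Gabrb2 was not tested. In sorted nuclei, fewer nuclei of a type and less RNA per nucleus cannot be told apart.

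Transduced neurons of any kind gave the same comparison in another sort. Here 5 of the 26 genes fell with Kir2.1 and 0 rose (edgeR, 15949 genes tested), where 3.45% of all genes tested fell, 2.18% rose and 5.63% passed in either direction. They were the GABA-A subunits Gabra4, Gabrg3 and Gabrb2, the synthetic enzyme Gad1 and the GABA-B auxiliary subunit Kctd16. The median log2 fold change of the 26 genes was -0.42, against 0.04 over all genes.

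Gabra4, an alpha subunit found with delta in extrasynaptic receptors, lies on chromosome 5 (71569749 to 71658308, minus strand). In transduced neurons it was at 42.8, 72.2 and 110 CPM (lowest, median and highest) with Kir2.1 and at 133, 176 and 216 CPM with the mutant. No Kir2.1 library reached the lowest mutant library. Gabra4 was 2.29-fold lower with Kir2.1 (log2 fold change -1.20 ± 0.19, adjusted p = 0.000184; 8.36e-05 to 0.000673 with any 1 of 16 libraries left out). The head of Gabra4 overlaps that of Gabrb1 on the opposite strand, but only from 71658113 to 71658308. Over its whole span Gabrb1 had 277912 counts in all libraries, against 44061 of Gabra4. Gabrb1 had a log2 fold change of -0.47 ± 0.16 (adjusted p = 0.0824).

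The upstream stretch of Gabra4, chr5:71658364-71658558 of GRCm38.p6 on the minus strand (RefSeq), is shown as that of the gene whose vectors did not overlap in neurons, with its 2 GC boxes in capitals. That of Gad1, chr2:70561879-70562041 on the plus strand, is shown as the presynaptic gene that fell in neurons. It lies before a RefSeq start site that is inside the span given for Gad1 above, not before the start of that span. No motif searched lies in the bases shown (1 GC box of the Gad1 window lies in the exonic bases left out). The motifs searched on both strands were the cAMP response element TGACGTCA (in 1.55% of all windows), its half-site TGACG, which the full element contains (17.77%), the GC box GGGCGG (32.74%), the AP-1 site TGANTCA (6.75%), the E-box CACGTG (6.02%), the Nr4a site AAAGGTCA (1.34%) and the Egr site GCGTGGGCG (0.54%). Of the 26 genes 22 had a window in the table, and the full cAMP response element was in that of Kctd8 alone. A match describes these letters and is not a measured site, and its absence says nothing of the factor.
Gabra4: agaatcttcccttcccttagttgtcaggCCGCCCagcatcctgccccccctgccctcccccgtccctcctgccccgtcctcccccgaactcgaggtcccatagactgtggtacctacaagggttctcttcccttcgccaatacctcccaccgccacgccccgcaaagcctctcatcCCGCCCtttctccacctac
Gad1: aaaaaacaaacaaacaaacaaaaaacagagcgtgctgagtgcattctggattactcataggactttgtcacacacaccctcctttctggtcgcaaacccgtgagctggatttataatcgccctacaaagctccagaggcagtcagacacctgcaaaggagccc

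Gabrg3, a gamma subunit on chromosome 7 (56716465 to 57387188, minus strand), was at 253, 441 and 670 CPM in transduced neurons with Kir2.1 and at 579, 738 and 1036 CPM with the mutant. Of the 8 Kir2.1 libraries 7 lay below every mutant library. Gabrg3 was 1.84-fold lower with Kir2.1 (-0.88 ± 0.17, adjusted p = 0.00203; 0.000452 to 0.0061 with any 1 library left out). Gabrb2 was at 193, 222 and 346 CPM with Kir2.1 and at 286, 362 and 479 CPM with the mutant, so that 5 of 8 Kir2.1 libraries lay below every mutant library (-0.57 ± 0.15, adjusted p = 0.0265). Kctd16 was at 907, 1141 and 1706 CPM with Kir2.1 and at 1358, 1652 and 2330 CPM with the mutant, with 6 of 8 Kir2.1 libraries below every mutant library (-0.52 ± 0.14, adjusted p = 0.031).

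The calls of Gabrb2 and Kctd16 in neurons lay near the threshold, and leaving out 1 library was often enough to end them. Leaving out Kir2.1 library 3, 4, 5 or 9 or mutant library 3, 4 or 9 ended the call of Gabrb2 (adjusted p up to 0.0663), and the same libraries and library 7 of either vector ended that of Kctd16 (up to 0.0693). Log2 fold changes stayed from -0.65 to -0.52 for Gabrb2 and from -0.61 to -0.45 for Kctd16. Other GABA-A subunits in neurons, Gabra2, Gabra3, Gabra5, Gabrb1, Gabrg1 and Gabrd, had log2 fold changes from -0.47 to 0.87 and did not pass.

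On the presynaptic side Gad1 was at 25.3, 35.6 and 52.9 CPM in transduced neurons with Kir2.1 and at 46.7, 64.6 and 105 CPM with the mutant. Of the 8 Kir2.1 libraries 6 lay below every mutant library, and all 8 below the mutant median. Gad1 was 1.94-fold lower with Kir2.1 (log2 fold change -0.96 ± 0.21, adjusted p = 0.0052; 0.00292 to 0.0164 with any 1 library left out). Gad2 was at 7.05, 18.8 and 36.5 CPM with Kir2.1 and at 17.9, 35.995 and 61.2 CPM with the mutant and did not pass (-0.83 ± 0.30, adjusted p = 0.118). Slc32a1 had 0 to 2.30 CPM with Kir2.1 and 0 to 5.67 CPM with the mutant, which is close to the floor of detection (-0.75 ± 0.80, adjusted p = 0.698).

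Excitatory neurons make little GABA. The interneuron markers that passed were Dlx6os1 (-2.63 ± 0.48), Adarb2 (-2.13 ± 0.36), Reln (-1.27 ± 0.25) and Lamp5 (-0.93 ± 0.25), which fell with Kir2.1. Most markers tested did not pass, and of the 9 tested of other interneurons 2 lay above 0, up to 0.79. Whether the Lamp5 RNA of this sort came from interneurons was not tested. Of 10 pan-GABAergic markers 6 could be tested, of which 1 fell and 0 rose, and their summed level was 96.4 to 1093 CPM with Kir2.1 and 500 to 1459 CPM with the mutant. The 12 VIP neuron markers, 5 of them tested and 1 fallen, summed to 69.4 to 476 CPM against 264 to 714 CPM, and the 12 markers of other interneurons, 2 of 9 tested fallen, to 475 to 867 CPM against 665 to 1041 CPM. The 12 excitatory markers, of which 0 passed, summed to 1566 to 2049 CPM with Kir2.1 and 1878 to 2326 CPM with the mutant. Fewer interneuron nuclei and less Gad1 RNA per interneuron cannot be told apart here.

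The remaining genes in transduced neurons did not pass. Gabbr1 was at 98.4, 127 and 172 CPM with Kir2.1 and at 105, 146 and 165 CPM with the mutant (log2 fold change -0.09 ± 0.14, adjusted p = 0.803). Kctd8 gave -0.51 ± 0.22, Kctd12, at most 15.2 CPM in any of these libraries, 1.88 ± 0.85, and Gabbr2 0.13 ± 0.15. Gphn was at 236, 292 and 379 CPM with Kir2.1 and 330, 413 and 499 CPM with the mutant, with 5 of 8 Kir2.1 libraries below every mutant library (-0.43 ± 0.14, adjusted p = 0.0599). Slc12a2 gave -0.86 ± 0.27 (adjusted p = 0.0528). Slc12a5 was at 83.0, 118 and 188 CPM with Kir2.1 and 76.3, 114 and 174 CPM with the mutant (0.10 ± 0.19, adjusted p = 0.842).

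Of 39 further GABA genes tested in neurons 7 fell and 0 rose, beside 3.45% of all genes tested that fell. Kcnj3 fell here too (-0.70 ± 0.18, adjusted p = 0.0149). Of the 17 genes tested on the list of inhibitory synapse organization and receptor trafficking 5 fell, among them Ptprd, the presynaptic partner of Slitrk3 (-0.78 ± 0.15), the neurexin gene Nrxn3 (-0.66 ± 0.13), the dystrophin gene Dmd (-0.69 ± 0.15), and Mdga2, a protein that blocks the binding of neuroligins to neurexins (-0.60 ± 0.14). Ptprd and Nrxn3 also act at excitatory synapses. All 4 genes named from this list are very long, and 20.6% of all genes over 200 kb fell in this comparison; the part of length was not tested.

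**Figure D2:**
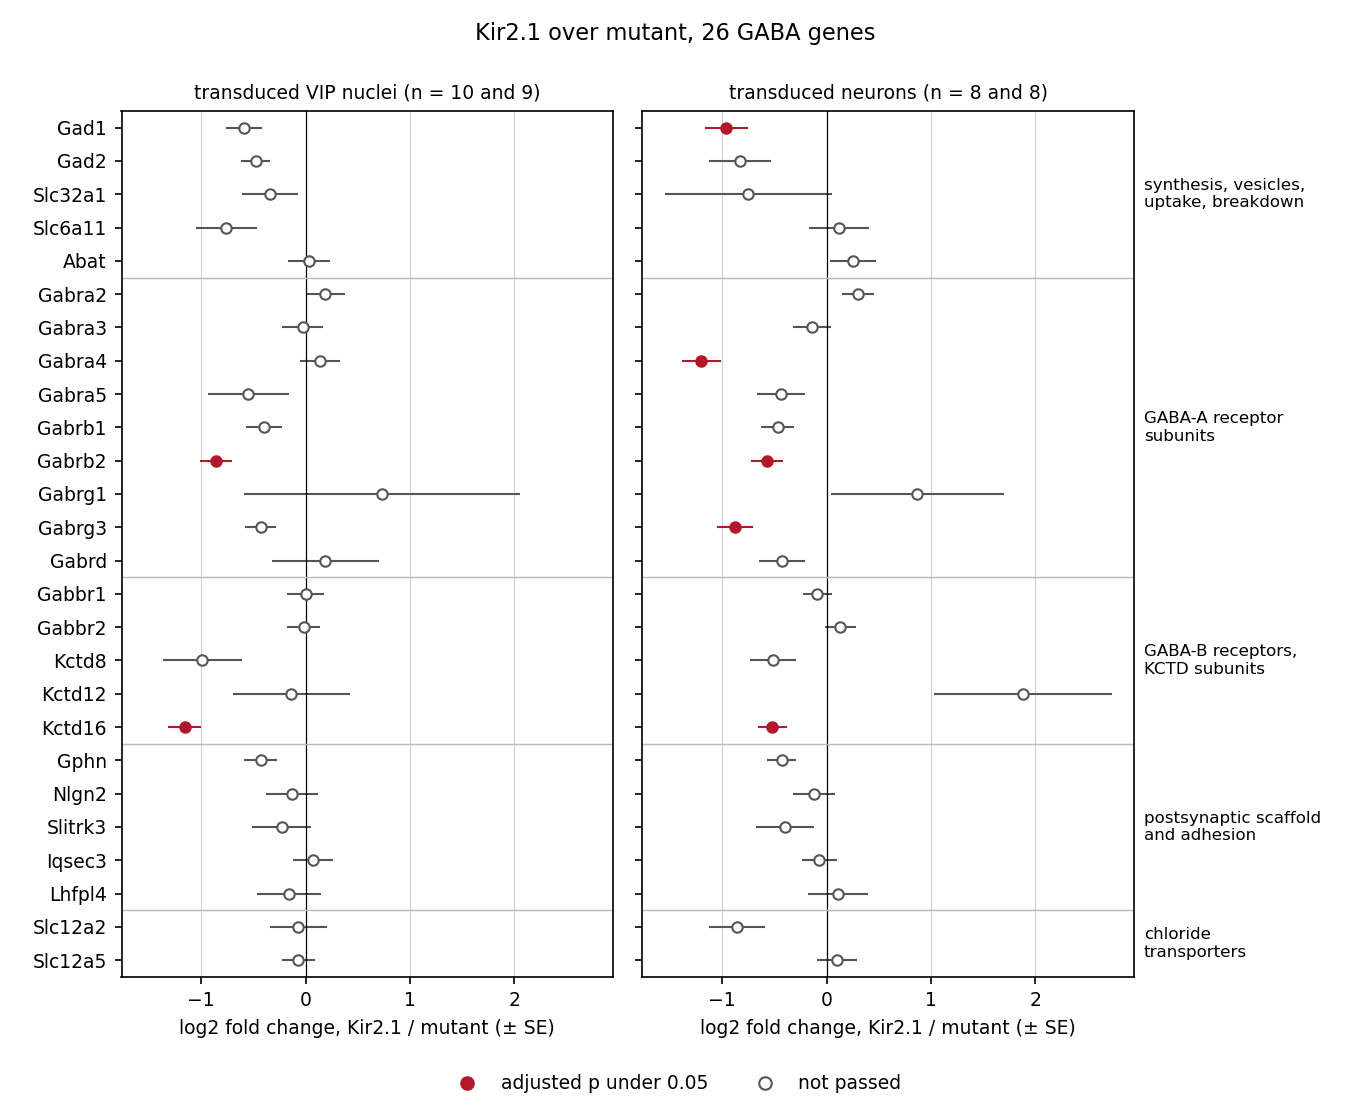
Log2 fold change of Kir2.1 over mutant (horizontal axis, ± SE) for each of the 26 genes, in rows by role, in transduced VIP nuclei (left, 10 and 9 libraries) and transduced neurons (right, 8 and 8 libraries). Filled points passed the test: 2 genes on the left and 5 on the right, all below 0.

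**Figure D3:**
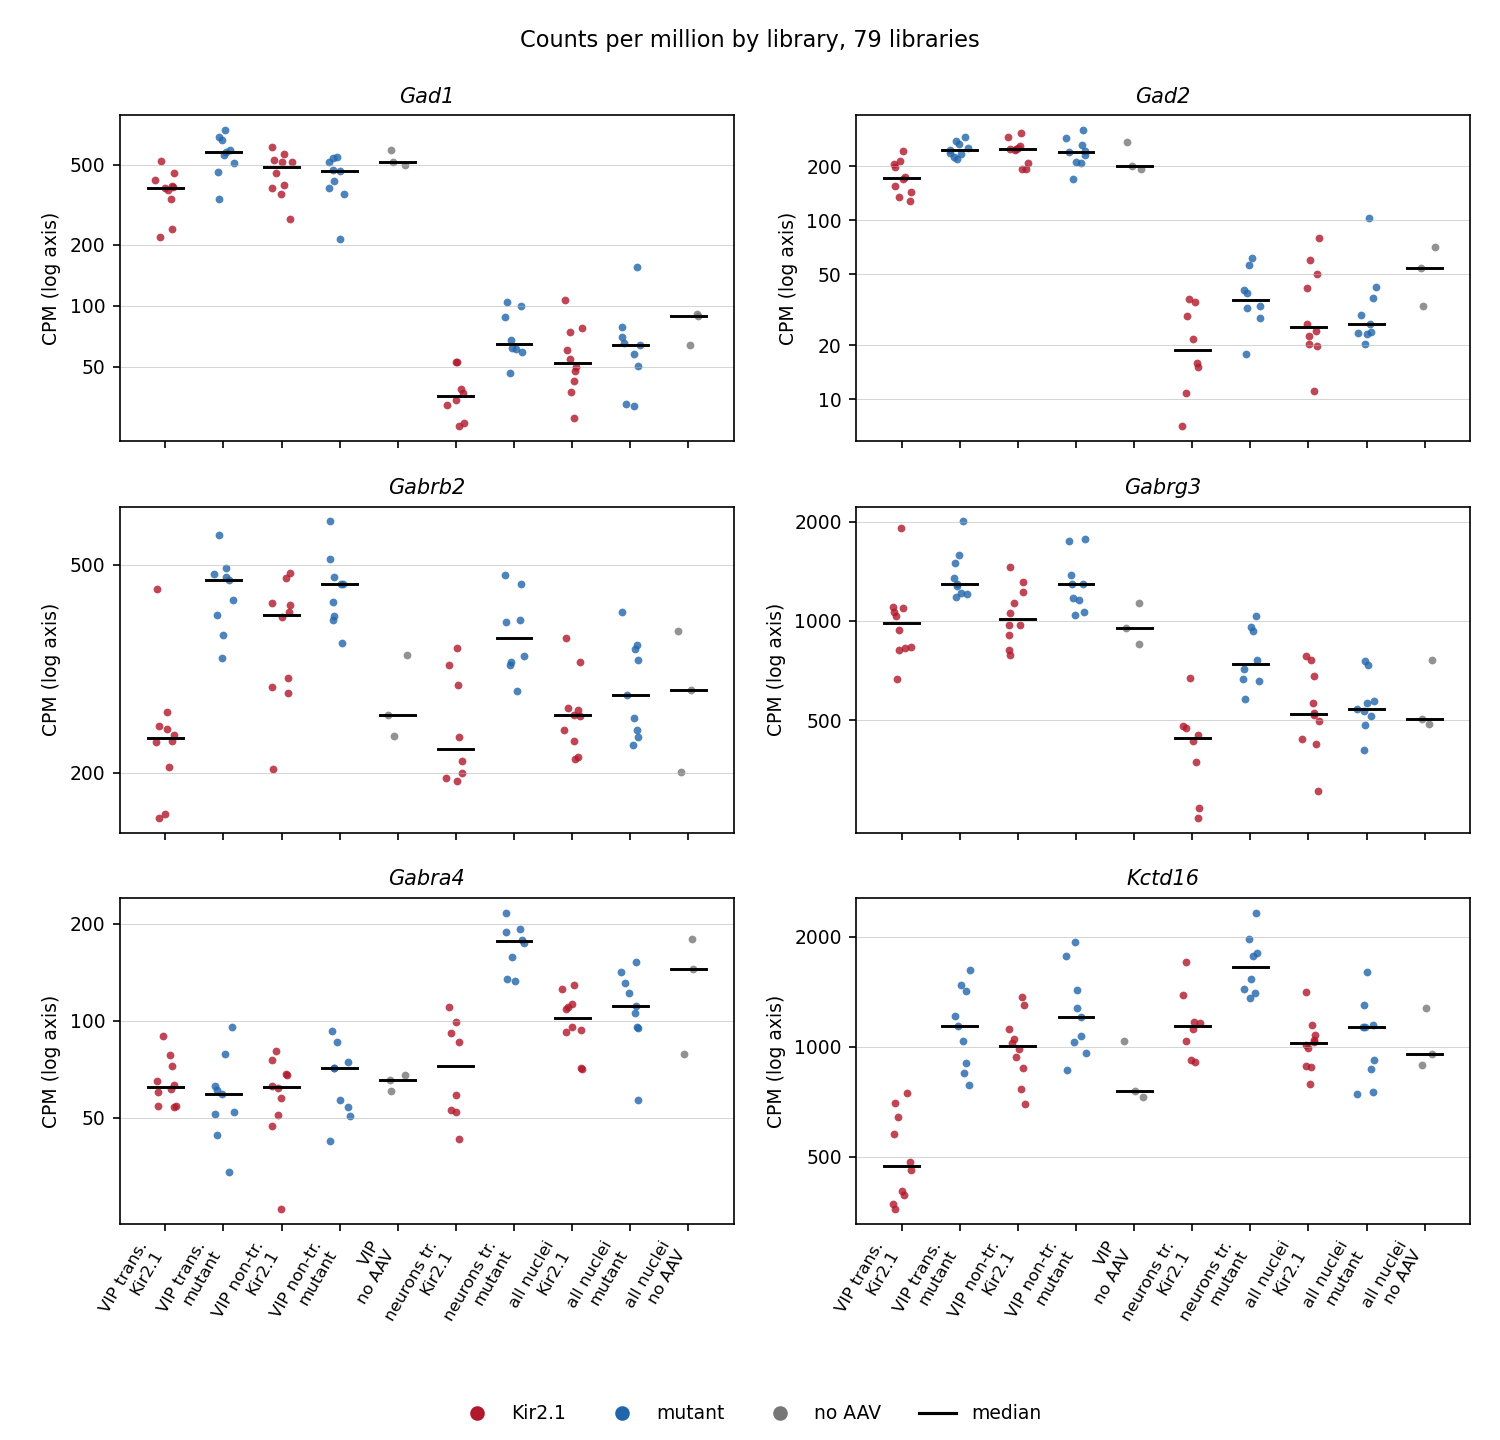
Each point is the level of 1 library (CPM, log axis) for 6 of the genes in the 10 groups, with a line at the group median. Kctd16 in transduced VIP nuclei and Gabra4 in transduced neurons show no overlap between Kir2.1 and mutant libraries.

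Whether the effect of the vector differed between the 2 sorts was tested with an interaction over the 35 transduced libraries. Of the 26 genes 1 passed, where 0.316% of all 18359 genes tested did. It was Gabra4, whose difference between Kir2.1 and mutant was higher by 1.37 ± 0.26 (log2, adjusted p = 0.00486) in VIP nuclei than in neurons, since it fell in neurons and not in VIP nuclei. For Kctd16 the interaction was -0.61 ± 0.23 (adjusted p = 0.426), for Gad1 0.40 ± 0.26, for Gabrg3 0.47 ± 0.24 and for Gabrb2 -0.26 ± 0.23, so that a difference between the sorts was not shown for these 4 genes.

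Gene span was set beside these falls, because longer genes fell more often with Kir2.1. In transduced VIP nuclei 0.465% of genes under 10 kb fell and 5.93% of those over 200 kb, and in transduced neurons 0.898% and 20.6%. Of the 26 genes 8 span over 200 kb, with Gabrb2 at 209 kb, Kctd16 at 275 kb and Gabrg3 at 671 kb among them, and 2 of the 8 fell in VIP nuclei and 3 in neurons. The other 5 did not pass in either sort: Gabra3, Gabbr2, Kctd8, Gphn and Gabrb1. Gad1, at 48.9 kb, and Gabra4, at 88.6 kb, fell in neurons at spans of 10 to 100 kb, where 1.98% of all genes tested fell. The part of span in the falls was not tested.

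**Figure D4:**
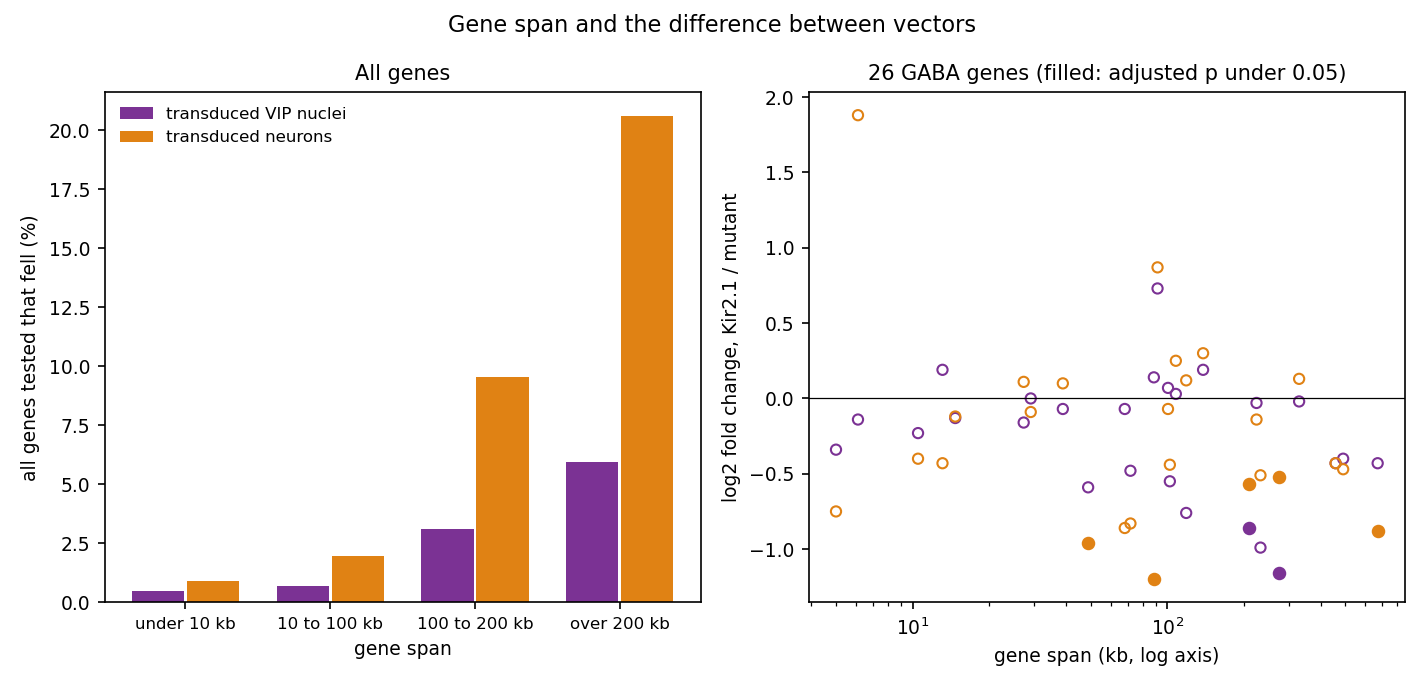
Left, percent of all genes tested that fell with Kir2.1, by gene span, in transduced VIP nuclei and transduced neurons. Right, log2 fold change of Kir2.1 over mutant for the 26 genes against span (kb, log axis), filled where the test was passed. The bars rise to 5.93% and 20.6% over 200 kb, where Gabrb2, Kctd16 and Gabrg3 lie.

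The Kir2.1 mice also gave transduced and non-transduced VIP nuclei, which ask for the effect of carrying the channel beside neighbours without it. This comparison shares its 10 transduced libraries with the one between vectors. Again 2 of the 26 genes fell and 0 rose, Kctd16 and Gabrb2, where 0.599% of all 21207 genes tested fell, 0.17% rose and 0.769% passed in either direction. Kctd16 was at 359, 472 and 747 CPM in transduced and at 697, 1007 and 1373 CPM in non-transduced VIP nuclei. Of the 10 transduced libraries 8 lay below every non-transduced one, and Kctd16 was 1.95-fold lower (log2 fold change -0.97 ± 0.16, adjusted p = 0.000109). Gabrb2, at 164, 233 and 449 CPM against 203, 401 and 481 CPM, passed narrowly (-0.59 ± 0.15, adjusted p = 0.0437). Its call ended when any 1 of 15 of the 20 libraries was left out (adjusted p up to 0.0859) and without the libraries that stood apart (0.0845).

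Other members in this comparison did not pass. Gad1 was at 219, 384 and 523 CPM in transduced and 269, 485 and 608.5 CPM in non-transduced VIP nuclei, and Gad2 at 129, 172 and 244 CPM against 192, 250 and 305 CPM (log2 fold change -0.45 ± 0.13, adjusted p = 0.0892). Slc6a11 was lower in 7 of the 10 transduced libraries than in every non-transduced one (-1.03 ± 0.28, adjusted p = 0.0658). Gabrg1 was at 0 to 11.9 CPM in transduced and 0 to 0.866 CPM in non-transduced VIP nuclei (adjusted p = 0.138). Of the 45 further GABA genes tested 0 passed by edgeR, with 5 at an unadjusted p under 0.05, beside 1973 of all 21207 genes. Cell markers moved here as well: 3 of 12 VIP neuron, 2 of 11 other interneuron and 2 of 10 pan-GABAergic markers fell, and 1 of 12 excitatory markers rose. The VIP neuron markers summed to 7635 to 13100 CPM in transduced and 13585 to 22503 CPM in non-transduced nuclei, which did not overlap, and their part in the falls of Kctd16 and Gabrb2 was not tested.

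With the mutant vector, transduced and non-transduced VIP nuclei differed in 0 of the 26 genes by edgeR and by DESeq2, with 1, Gad1, at an unadjusted p under 0.05 (log2 fold change 0.41 ± 0.17, adjusted p = 0.708). Of all 21207 genes, 0.00943% passed and 1110 had such an unadjusted p. Kctd16 had -0.12 ± 0.17 and Gabrb2 -0.00 ± 0.16. The interaction of vector and transduction, which tests whether the change with transduction differed between Kir2.1 and mutant, passed for 0 of the 26 genes by edgeR, with 4 at an unadjusted p under 0.05, where 0.401% of all 21207 genes passed and 1648 had such a p. It was -0.85 ± 0.23 for Kctd16 (adjusted p = 0.0739), -0.70 ± 0.24 for Gad1 (0.25), -0.52 ± 0.19 for Gad2 (0.326) and -0.58 ± 0.22 for Gabrb2 (0.338). DESeq2 called 1 of the 26, Kctd16 (adjusted p = 0.0397), and so did edgeR with no filter on low counts (0.0283).

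Cells without the vector in the same cortex were compared between Kir2.1 and mutant mice to ask for effects on neighbours. In non-transduced VIP nuclei 0 of the 26 genes passed by edgeR and by DESeq2, with 1 at an unadjusted p under 0.05. By edgeR 0% of all 21207 genes passed, 1843 had such an unadjusted p, and DESeq2 called 14. The 1 gene was Slc12a5, at 61.4, 72.8 and 116 CPM with Kir2.1 and 80.8, 107 and 141 CPM with the mutant (log2 fold change -0.51 ± 0.16, adjusted p = 0.272). Kctd16 (-0.32 ± 0.16), Gabrb2 (-0.28 ± 0.15), Gad1 (0.10 ± 0.17) and Gad2 (0.04 ± 0.14) did not pass. The median log2 fold change of the 26 genes was -0.28, against 0.01 over all genes, with 22 of the 26 below 0. A median below that of all genes was thus not confined to transduced nuclei. In all non-transduced nuclei 0 of the 26 passed by either tool, with 2, Gabbr1 (-0.32 ± 0.14) and Gabbr2 (-0.34 ± 0.15), at an unadjusted p under 0.05. Again 0% of all 21362 genes passed by edgeR, 1289 had such an unadjusted p, and DESeq2 called 2. Gad1 gave -0.22 ± 0.25 there, Gabra4 -0.16 ± 0.17 and Gphn -0.27 ± 0.14. The median over the 26 genes was -0.17 in these nuclei, with 19 of them below 0.

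Injection itself was compared with no injection, in 19 libraries of non-transduced nuclei against 3 of each kind. All uninjected libraries were labelled male and the injected groups were of both sexes, so injection is in part confounded with labelled sex. In VIP nuclei 0 of the 26 genes passed by edgeR and by DESeq2, with 6 at an unadjusted p under 0.05, where 0.00943% of all 21207 genes passed and 2095 had such a p. Gabrb2 was at 203 to 481 CPM with Kir2.1 and 355 to 605 CPM with the mutant, and at 235, 258 and 336 CPM in uninjected mice (log2 fold change 0.55 ± 0.22, adjusted p = 0.475). In uninjected VIP nuclei Kctd16 was at 730, 754 and 1037 CPM, above 9 of the 10 transduced libraries with Kir2.1 in its lowest value. In all nuclei 0 of the 26 genes passed by either tool, with 1, Gabrd (-1.03 ± 0.35, adjusted p = 0.324), at an unadjusted p under 0.05, where 0.211% of all 21362 genes passed, 0.014% fell and 2289 had such a p. Gabrd was at 113, 148 and 238 CPM in uninjected mice.

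The spread between libraries of 1 group differed among the 26 genes and limits what each could show. In transduced VIP nuclei with Kir2.1 the SD was 17.8% of the mean for Gabra4 and 24.4% for Gad1. It was 66.8% for Kctd12, 68.7% for Gabrd and 150% for Gabrg1, which had few counts per library.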

How the data were processed

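The authors deposited 1 table of whole-number read counts per gene, with no normalization, for 79 libraries. Per the labels' protocols, nuclei were sorted, cDNA was primed with oligo-dT and amplified over 17 PCR cycles, and libraries were made with Nextera XT. Per the submitters' processing notes, cutadapt 1.18, STAR 2.5.3a and HOMER 4.9.1 were used with mm10; the annotation, the use of strand and the counting of introns are not given in the sources used here. Of 55335 gene IDs, 55154 matched GENCODE vM21, and the other 181 held 0.0264% of the counts. No molecular identifiers were used, so reads are not independent molecules.

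Counts were tested with edgeR 4.0.16 (R 4.3.3): TMM scaling, filterByExpr (minimum count 10, minimum total 15), quasi-likelihood F tests, two-sided, with Benjamini-Hochberg adjustment over all genes tested and a threshold of 0.05. Fits used 41 VIP libraries, 16 of neurons, 22 of all nuclei, 44 non-transduced or 35 transduced libraries; several comparisons share libraries. Printed CPM values are TMM-scaled over all 79 libraries and are not per length, so levels are compared within a gene. Errors are SE of log2 fold changes. All 26 genes were named by rule, with full values for those called between vectors, by transduction or in an interaction, for Gad1, Gad2, Slc32a1, Gabbr1, Gphn and Slc12a5, and for the 3 highest and 3 lowest between populations. Values of other members, such as Kctd8 and Slc6a11 between vectors, and the marker genes named were picked after their values were seen. The genes, lists and markers were chosen with earlier results of these data known.

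Alternatives were DESeq2 1.42.0, RLE size factors, no filter, sex as labelled, a replicate block, the 2 groups alone, each library left out, and no libraries that stood apart (profile correlation over 3 median absolute deviations low). Sex read from Xist and Y-linked counts was added as a covariate after seeing the data. The steps were tested on simulated data. Some genes of the wider lists are counted but not reported here by name.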

Additional observations from a re-analysis of the deposited data

Results flagged for a closer look

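Of 80 groups of values examined for a library far from its group, 8 held one; chance gives about 1 in 20. In transduced VIP nuclei with Kir2.1, library 6 had 449.29 CPM of Gabrb2, where the next library had 261.39 CPM, and 1917.7 CPM of Gabrg3, where the next had 1102.1 CPM. With the mutant, library 1 of the same sort had 2004.4 CPM of Gabrg3, and the next 1589.8 CPM.

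In all non-transduced nuclei of mutant mice, library 9 was high for the presynaptic genes. It had 155.34 CPM of Gad1 (next 78.418 CPM), 103 CPM of Gad2 (next 42.568 CPM) and 9.0835 CPM of Slc32a1 (next 3.721 CPM). Library 5 of that group had 161.9 CPM of Slc12a5 (next 100.85 CPM). Non-transduced VIP library 9 with Kir2.1, which stood apart in its whole profile, had 38.562 CPM of Slc32a1 (next 24.52 CPM).

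The effect of the vector on Gabra4 differed between transduced VIP nuclei and transduced neurons by 1.37 ± 0.26 on the log2 scale (edgeR interaction, adjusted p = 0.00486).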

How the results depend on the processing

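No called result changed direction under any alternative run. DESeq2 called 4 of the 26 genes between vectors in transduced VIP nuclei, against 2 with edgeR, and 8 in transduced neurons, against 5. Between transduced and non-transduced VIP nuclei with Kir2.1 it called 4, against 2. Calls over all genes were also more with DESeq2 in these comparisons, at 393, 1388 and 241, against 294, 898 and 163 with edgeR. Without the libraries that stood apart, the first of the counts among the 26 was 4 and the last 1. The last was also 1 with no filter and with the 2 groups alone. The interaction of vector and transduction, 0 with edgeR, gave 1 gene, Kctd16, with DESeq2, with no filter (adjusted p = 0.0283) and with the replicate block (0.00202). For this interaction edgeR called 85 of all genes, DESeq2 87 and the replicate block 75. With the replicate block the count in neurons was 3, without Gabrb2 (adjusted p = 0.128) and Kctd16 (0.134), and that between transduced and non-transduced VIP nuclei with Kir2.1 was 3. Shared numbers were not taken as pairs, since no label ties them to an animal and no comparison had every pair's correlation of deviations over 0.1. Within a vector their medians were nonetheless above those of other pairs, for example 0.012 to 0.152 between transduced and non-transduced VIP libraries with Kir2.1 (median 0.0677, other pairs -0.00749). Libraries of 1 vector with the same number were also mixed in expressed sex for 0 of 22 numbers. Both are hints of pairing from the data, not the design. If the numbers do mark animals, the main tests within a vector left a pairing out. The cause of the shifts in counts was not tested. With 1 library left out, counts were 2 to 3 between vectors in VIP nuclei, 3 to 7 in neurons, 1 to 3 between transduced and non-transduced VIP nuclei with Kir2.1, 0 to 1 for the interaction and 16 to 17 between VIP and all nuclei. Low counts limit Gabrg1 and Kctd12 in every sort, and Slc32a1 outside VIP nuclei.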
